A study of Mus musculus with 9 samples.

Results

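Livers given LRH1 together with acetaminophen were compared with livers given acetaminophen alone, across all genes with a value. These groups held 6 of the 9 libraries in the series, and members were taken from the treatment named in the labels. LRH1+APAP livers 1 to 3 came from mice treated with both LRH1 and APAP, APAP livers 1 to 3 from mice treated with APAP, which is acetaminophen, and vehicle livers 1 to 3 from mice treated with vehicle. All were Balb/c mice aged 9 weeks, and each library was messenger RNA of 1 liver. The labels state neither the sex of the mice nor the dose, route and timing of the treatments, nor how LRH1 was delivered. No group received LRH1 without acetaminophen, so an effect of LRH1 alone and one that needs the drug cannot be told apart. Groups follow the sample labels, which name LRH1+APAP where the series design text has LRH1. Whether the livers came from separate cages or treatment days is also not given. The p-values therefore set differences against the spread between these 9 livers within their groups, vehicle livers included.

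LRH1, encoded by Nr5a2, is a nuclear receptor that binds DNA as a monomer and acts in hepatocytes on genes of bile acid, cholesterol and methyl group metabolism. Acetaminophen is turned into a reactive quinone imine by cytochrome P450 enzymes, most of all in hepatocytes around the central vein, where glutathione is used up and cells die. Those pericentral hepatocytes carry a gene programme kept on by Wnt signals, with glutamine synthetase and several P450 enzymes among its members, and injured livers draw in neutrophils and activate stress, actin and repair genes.

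Values were FPKM, fragments per kilobase of transcript per 1e6 fragments, summed over the transcript models of a gene. Library depth is unknown. Summed FPKM was 520072 to 529493 in LRH1+APAP, 546381 to 555936 in APAP and 555202 to 575365 in vehicle livers. Alb, albumin, the defining transcript of hepatocytes, had 32282, 37616 and 33091 FPKM in LRH1+APAP livers, against 29114, 29869 and 30353 FPKM in APAP livers. The APAP livers were spread out. Across genes, which are not independent replicates, APAP livers 1 and 2 were the least alike (Spearman 0.9491), and APAP liver 3 was close to both (0.9755 and 0.9768). APAP liver 1 correlated with LRH1+APAP livers 1 to 3 at 0.98, 0.9756 and 0.9741, and APAP liver 2 at 0.9377, 0.9314 and 0.9374. Spread between livers, as the root mean square over genes of the SD on the log2 scale, was 0.177 in LRH1+APAP, 0.312 in APAP and 0.178 in vehicle livers.

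Many genes differed between the treatments. A total of 12202 genes averaging 0.5 FPKM or more were tested with limma on log2(FPKM + 1), in a fit that held all 9 libraries. A gene rose or fell when its Benjamini-Hochberg adjusted p was under 0.05. In LRH1+APAP livers 870 genes rose (7.13% of those tested) and 631 fell (5.17%), which makes 12.3% in either direction. At least 2-fold changes on this scale were found for 131 genes that rose and 100 that fell. The median log2 difference, LRH1+APAP minus APAP, was -0.01 over all tested genes. At an unadjusted limma p under 0.05, 2055 of the 12202 genes were higher in LRH1+APAP livers and 1941 lower. Unadjusted counts for lists below are to be read against these. Without regard to a test, 2183 genes (17.9%) had all LRH1+APAP livers above all APAP livers, and 1919 (15.7%) had them all below. Of the calls, 58.0% were rises. That share was 76.5% when each library was scaled to the same summed FPKM, 53.6% after quantile normalization and 49.9% after upper-quartile scaling, which gave 709 rises and 712 falls.

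The number of calls depended on which livers were in the fit. With the 6 libraries of these groups alone, 194 genes rose (1.57%) and 57 fell (0.461%), of which 189 and 57 were also called with 9 libraries. Without APAP liver 1, 2038 rose and 2604 fell. Without APAP liver 2 the counts were 555 and 408, and without APAP liver 3 they were 355 and 128. Leaving out LRH1+APAP liver 1, 2 or 3 gave 361, 203 and 157 rises and 168, 66 and 53 falls. Without vehicle liver 1, 2 or 3, which enter for the spread alone, 552, 519 and 619 rose and 325, 302 and 357 fell. Across the 21 alternatives that were run, 139 genes rose and 40 fell in each one in which they were tested. Genes named below as called in every alternative belong to those sets. Counts of list members below are to be read against the shares of all tested genes, 7.13% that rose and 5.17% that fell. The lists were chosen with earlier results of these data known, so their shares are a description and were not tested.

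**Figure D1:**
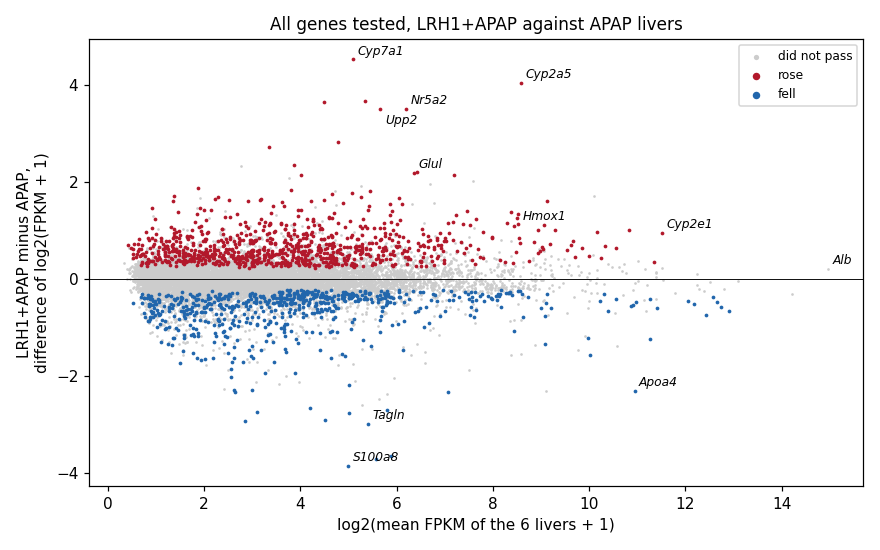
Log2 difference (LRH1+APAP minus APAP, log2 of FPKM plus 1) of each tested gene against the log2 of its mean FPKM over the 6 livers plus 1. Red points are the 870 genes that rose, blue points the 631 that fell and grey points those that did not pass; Cyp7a1, Cyp2a5 and Nr5a2 lie at the top and S100a8 at the bottom.

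Nr5a2 (chromosome 1, 136843585 to 136960448), the gene that encodes LRH1, was far higher in LRH1+APAP livers. It had 206, 83.8 and 113 FPKM in LRH1+APAP livers 1 to 3, against 10.8, 9.29 and 10.3 FPKM in APAP livers and 14.7, 13.1 and 12.3 FPKM in vehicle livers. The lowest LRH1+APAP liver was above every other liver, and liver 1 was the highest. The log2 difference was 3.50 ± 0.27 (SE, as for all log2 differences here; limma adjusted p = 0.00102), and it was called in every alternative. The mean FPKM was 13.2 times that of APAP livers. Both RefSeq transcript models of the gene had higher levels in LRH1+APAP livers. Transcript variant 1, of 3711 bases, had 157, 53.4 and 84.5 FPKM in LRH1+APAP livers and 10.8, 7.61 and 10.3 FPKM in APAP livers. Transcript variant 2, of 3626 bases, had 48.7, 30.3 and 28.9 FPKM in LRH1+APAP livers and 0.0220, 1.69 and 0 FPKM in APAP livers. These values are the mouse gene's own models, and whether any of the RNA came from a delivered sequence cannot be told apart here.

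Established liver targets of LRH1 gave few calls. Of the 19 genes listed, 17 were tested; 1 rose and 1 fell, which is 5.88% in each direction against 7.13% and 5.17% of all tested genes, and their median log2 difference was 0.32. The gene that rose was Cyp7a1, cholesterol 7 alpha-hydroxylase (chromosome 4, 6265613 to 6275631), which sets the rate of bile acid synthesis. It had 34.6, 81.1 and 77.4 FPKM in LRH1+APAP livers, against 2.21, 1.77 and 1.13 FPKM in APAP livers and 50.02, 37.7 and 19.7 FPKM in vehicle livers. The LRH1+APAP and APAP livers did not overlap, and LRH1+APAP livers 2 and 3 were also above every vehicle liver. Its log2 difference, 4.52 ± 0.39, was the largest among the named rises (adjusted p = 0.00163, called in every alternative). The gene that fell was Apoa1, the main protein of high-density lipoprotein, at 5115, 5634 and 5438 FPKM in LRH1+APAP livers and 7624, 7037 and 8005 FPKM in APAP livers (log2 -0.48 ± 0.09, adjusted p = 0.0174). That call was lost with no filter on low values, after quantile normalization, with 6 libraries in the fit, with a weight for each group, and without LRH1+APAP liver 1, 2 or 3, or APAP liver 3. Without APAP liver 1 the list had 6 rises and 2 falls. At an unadjusted limma p under 0.05, 6 of the 17 were higher and 1 lower, against 2055 and 1941 of all 12202 tested genes.

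Nr0b2, the small heterodimer partner that represses bile acid synthesis, had 17.8, 21.98 and 23.4 FPKM in LRH1+APAP livers and 15.5, 4.51 and 19.9 FPKM in APAP livers. The groups overlapped, since APAP liver 3 was above LRH1+APAP liver 1, and APAP liver 2 was the lowest. Its log2 difference of 0.82 ± 0.44 did not pass (adjusted p = 0.218). Cyp8b1, the sterol 12 alpha-hydroxylase that sets the share of cholic acid, had 116, 125 and 150.3 FPKM in LRH1+APAP livers and 132, 73.4 and 75.2 FPKM in APAP livers, again with overlap (log2 0.52 ± 0.22, adjusted p = 0.135). It passed without APAP liver 1, whose value was the highest of its group (adjusted p = 0.00284, in a range of 0.00284 to 0.327 over its alternatives).

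Promoter windows were searched on both strands for CAAGGNCA, the extended nuclear receptor element that LRH1 is known to bind, where N is any base. Windows ran from 250 bases before to 50 bases after each annotated start and were taken from RefSeq on GRCm38.p6. The windows below are those of Upp2, the largest named rise that held a match, and of the LRH1 targets Nr0b2 and Cyp8b1, printed on the strand of the gene with the match in capitals.
Upp2, chr2:58754934-58755233, plus strand: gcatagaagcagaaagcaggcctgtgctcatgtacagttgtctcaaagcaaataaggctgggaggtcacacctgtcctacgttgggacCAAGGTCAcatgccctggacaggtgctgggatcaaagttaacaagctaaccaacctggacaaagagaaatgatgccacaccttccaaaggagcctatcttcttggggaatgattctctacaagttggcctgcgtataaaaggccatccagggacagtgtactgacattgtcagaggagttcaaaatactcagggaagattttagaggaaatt
Nr0b2, chr4:133553126-133553425, plus strand: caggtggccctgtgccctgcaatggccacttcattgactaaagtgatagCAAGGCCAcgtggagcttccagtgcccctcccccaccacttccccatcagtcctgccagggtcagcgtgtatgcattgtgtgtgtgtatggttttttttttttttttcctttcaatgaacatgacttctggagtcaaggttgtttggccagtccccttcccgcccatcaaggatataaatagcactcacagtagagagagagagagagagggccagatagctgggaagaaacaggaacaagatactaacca
Cyp8b1, chr9:121916256-121916555, minus strand: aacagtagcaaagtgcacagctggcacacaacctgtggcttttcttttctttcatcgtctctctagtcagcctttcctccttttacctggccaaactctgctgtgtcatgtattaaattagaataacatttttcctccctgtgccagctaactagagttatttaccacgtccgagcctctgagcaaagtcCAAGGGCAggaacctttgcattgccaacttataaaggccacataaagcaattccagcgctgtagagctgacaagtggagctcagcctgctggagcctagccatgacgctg
The match began 162 bases before the start in the second of 2 annotated windows of Upp2, 201 bases before it in Nr0b2 and 60 bases before it in Cyp8b1. A match was found for 44 of 668 genes that rose and had a window (6.59%), 25 of 473 that fell (5.29%) and 574 of 9268 that were tested (6.19%), and in 2204 of all 32851 windows (6.71%). Cyp7a1 had no window and was not searched. Among genes that rose in every alternative, 7 of 108 had one (6.48%), and among those that fell in every alternative, 0 of 23. These shares were not tested, and a match describes letters in a window, not binding.

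Upp2, uridine phosphorylase 2, which breaks down uridine and is made mostly in liver (chromosome 2, 58567335 to 58792971), had 61.99, 147 and 67.5 FPKM in LRH1+APAP livers, against 12.03, 5.805 and 4.05 FPKM in APAP livers and 245, 247 and 256 FPKM in vehicle livers. LRH1+APAP livers all lay between the APAP and the vehicle livers. Its log2 difference was 3.49 ± 0.38 (adjusted p = 0.00335, called in every alternative). Etnppl, ethanolamine phosphate phospholyase, also had a match in 1 of its windows and rose by log2 1.41 ± 0.29 (adjusted p = 0.0223), a call lost with 6 libraries in the fit, with a weight for each group, and without LRH1+APAP liver 1, 2 or 3, or APAP liver 3. Slc25a30, a mitochondrial carrier, had a match on the opposite strand and fell.

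Bile acid genes gave rises and no falls. Of 14 tested synthesis genes 3 rose (21.4%, against 7.13% of all tested genes) and 0 fell, with a median log2 difference of 0.27. Besides Cyp7a1, already counted among the LRH1 targets, these were Akr1d1, a 5 beta-reductase of the pathway, at 35.7, 39.7 and 37.1 FPKM in LRH1+APAP livers and 16.2, 8.94 and 7.84 FPKM in APAP livers (log2 1.74 ± 0.22, called in every alternative), and Cyp27a1, the sterol 27-hydroxylase of the alternative pathway (log2 0.78 ± 0.13). Cyp7a1 and Cyp27a1 are also counted in the pericentral list below, and Akr1d1 is not. Without APAP liver 1 the synthesis list had 7 rises. Of 14 tested genes of bile acid and bilirubin transport 3 rose (21.4%) and 0 fell (median 0.37). They were the uptake carriers Slco1a4 and Slco1b2 and the canalicular pump Abcc2, with log2 differences of 1.63 ± 0.28, 1.11 ± 0.23 and 0.74 ± 0.14. That count was 2, 0 and 1 without LRH1+APAP liver 1, 2 or 3, and 6 without APAP liver 1.

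The 12 largest rises, among genes with at least 5 FPKM and no overlap between the groups, included Cyp7a1, Nr5a2, Upp2 and several enzymes of steroid and drug metabolism. After Cyp7a1 came Cyp2a5 (chromosome 7, 26835340 to 26843264), a P450 enzyme known for coumarin hydroxylation, at 539, 970.0 and 662 FPKM in LRH1+APAP livers, against 59.8, 22.3 and 53.9 FPKM in APAP livers and 911, 678 and 636 FPKM in vehicle livers. The LRH1+APAP livers overlapped the vehicle livers and lay far above every APAP liver. The log2 difference was 4.04 ± 0.36 (adjusted p = 0.00165). Its neighbour Cyp2a4, a nearly identical paralog, had 32.00, 49.3 and 40.1 FPKM in LRH1+APAP livers and 1.703, 1.87 and 3.55 FPKM in APAP livers (log2 3.64 ± 0.31), and how reads were split between the pair is uncertain. The split is likewise uncertain for Cyp2c39 and Cyp2c38, neighbouring members of the Cyp2c cluster. Cyp2c39 had 62.7, 68.1 and 91.5 FPKM in LRH1+APAP livers and 2.96, 6.36 and 5.93 FPKM in APAP livers, and Cyp2c38 had 15.98, 14.6 and 19.7 FPKM in LRH1+APAP livers and 1.31, 1.98 and 1.897 FPKM in APAP livers. Both stayed below every vehicle liver (179, 181 and 207 FPKM and 60.04, 54.7 and 65.3 FPKM), with log2 differences of 3.66 ± 0.23 and 2.70 ± 0.14 (adjusted p = 0.000258 and 0.000177).

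The other large rises were of varied function. Serpina7, which encodes thyroxine-binding globulin, had 37.1, 40.4 and 63.9 FPKM in LRH1+APAP livers, against 7.25, 3.74 and 6.45 FPKM in APAP livers and 3.11, 3.91 and 3.05 FPKM in vehicle livers (log2 2.82 ± 0.25, adjusted p = 0.00163). Gstm3, a glutathione transferase, had 14.2, 27.2 and 35.4 FPKM in LRH1+APAP livers, 4.58, 3.63 and 6.04 FPKM in APAP livers and 4.66, 3.38 and 3.19 FPKM in vehicle livers (log2 2.14 ± 0.30, adjusted p = 0.00651). For Serpina7 and Gstm3 every LRH1+APAP liver was above every liver of both other groups, as it was for Nr5a2. Lpin1, the phosphatidate phosphatase lipin 1, had 16.7, 31.05 and 22.6 FPKM in LRH1+APAP livers and 5.11, 2.101 and 4.39 FPKM in APAP livers, with vehicle livers at 23.98, 12.7 and 28.05 FPKM (log2 2.34 ± 0.35, adjusted p = 0.00828). Akr1c14, a 3 alpha-hydroxysteroid dehydrogenase, had 129, 136 and 138 FPKM in LRH1+APAP livers and 68.5, 15.3 and 22.02 FPKM in APAP livers, with APAP liver 1 well above the other APAP livers (log2 2.19 ± 0.44, adjusted p = 0.0202). Its call was lost with 6 libraries in the fit, and without LRH1+APAP liver 1, 2 or 3, or APAP liver 3. The other 11 of the 12 were called in every alternative.

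**Figure D2:**
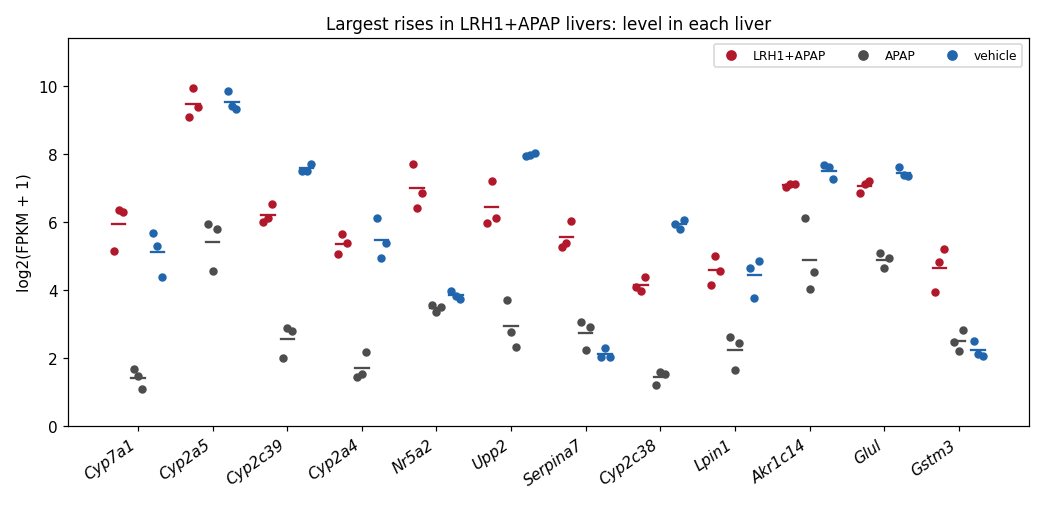
Level in each liver, as log2 of FPKM plus 1, of the 12 largest rises, with LRH1+APAP livers left, APAP livers in the middle and vehicle livers right for each gene. Points are livers and bars are group means. Genes were chosen to have no overlap between the LRH1+APAP and APAP livers. Only for Nr5a2, Serpina7 and Gstm3 do all LRH1+APAP livers lie above all vehicle livers.

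Pericentral hepatocyte genes rose in large part. Of 22 listed, 22 were tested; 16 rose (72.7%, against 7.13% of all tested genes) and 1 fell, with a median log2 difference of 1.25 against -0.01 over all genes. In 19 of them every LRH1+APAP liver was above every APAP liver, where 17.9% of all genes were. The list was chosen with earlier results of these data known, so these shares are a description. Glul, the glutamine synthetase of the innermost ring of hepatocytes (chromosome 1, 153899930 to 153909723), had 114, 138 and 146 FPKM in LRH1+APAP livers, against 32.97, 23.7 and 29.3 FPKM in APAP livers and 193, 164 and 163 FPKM in vehicle livers. All LRH1+APAP livers were above the APAP and below the vehicle livers (log2 2.18 ± 0.14, adjusted p = 0.000258). In these bulk samples more cells of a type and more RNA per cell cannot be told apart. With 6 libraries in the fit 13 rose, and the count was 12 to 19 when 1 liver was left out; 12 were called in every alternative. Their summed level was 6117 to 7017 FPKM in LRH1+APAP livers, 2505 to 3491 FPKM in APAP livers and 11225 to 11956 FPKM in vehicle livers.

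Cyp2e1, the main P450 enzyme that activates acetaminophen (chromosome 7, 140763833 to 140774977), had 3704, 4060.1 and 3772 FPKM in LRH1+APAP livers, against 2455, 1850.3 and 1723 FPKM in APAP livers and 7967, 8817 and 8335 FPKM in vehicle livers. Its level in LRH1+APAP livers was 1.91 times the APAP mean and below every vehicle liver (log2 0.95 ± 0.13, adjusted p = 0.00626). Cyp1a2, another P450 that can form the metabolite, had 199, 227 and 213 FPKM in LRH1+APAP livers and 114, 69.4 and 76.3 FPKM in APAP livers, and the vehicle livers, at 221, 215 and 204 FPKM, overlapped the LRH1+APAP livers (log2 1.32 ± 0.16, adjusted p = 0.00424). Oat, ornithine aminotransferase, had 241, 279 and 248 FPKM in LRH1+APAP livers and 114, 84.9 and 92.2 FPKM in APAP livers (log2 1.40 ± 0.13). Rgn, regucalcin, and Lect2, a secreted hepatocyte protein, rose by log2 1.24 ± 0.11 and 1.31 ± 0.13. All of these genes were called in every alternative.

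Transporters and Wnt feedback genes of the same list behaved unequally. Rhbg, an ammonium channel of pericentral cells, had 5.703, 5.67 and 6.79 FPKM in LRH1+APAP livers and 1.81, 0.836 and 1.23 FPKM in APAP livers (log2 1.64 ± 0.15, called in every alternative). Slc1a2, a glutamate carrier, had 3.26, 5.88 and 4.91 FPKM in LRH1+APAP livers, 1.71, 0.132 and 0.150 FPKM in APAP livers and 26.3, 21.6 and 25.2 FPKM in vehicle livers (log2 1.87 ± 0.32, call lost with 6 libraries in the fit, and without LRH1+APAP liver 2 or 3). It thus passed while staying below every vehicle liver. Slc1a4, a carrier of neutral amino acids, had 5.41, 6.41 and 7.54 FPKM in LRH1+APAP livers, 1.11, 1.200 and 1.62 FPKM in APAP livers and 0.510, 0.453 and 0.194 FPKM in vehicle livers, so LRH1+APAP livers were above all others (log2 1.69 ± 0.14, called in every alternative). Axin2, a feedback inhibitor and standard readout of Wnt signalling, had 7.100, 5.36 and 7.499 FPKM in LRH1+APAP livers, 3.23, 1.399 and 2.09 FPKM in APAP livers and 1.44, 1.76 and 1.89 FPKM in vehicle livers, again above all others (log2 1.27 ± 0.20, adjusted p = 0.0101), a call lost without LRH1+APAP liver 3. The gene that fell was Nkd1, another Wnt feedback inhibitor, at 0.957, 1.204 and 1.196 FPKM in LRH1+APAP livers and 1.58, 1.81 and 1.64 FPKM in APAP livers (log2 -0.34 ± 0.09, adjusted p = 0.0492); its call held in 6 of 20 alternatives. Lgr5, Notum, Znrf3, Rnf43 and Tbx3 did not pass, with log2 differences of 0.46, 0.64, 0.33, 0.29 and 0.45. Periportal genes, which mark the hepatocytes at the other end of the lobule, gave 3 rises and 2 falls among 18 tested (median 0.15). These were 16.7% and 11.1%, against 7.13% and 5.17% of all tested genes. Beside Etnppl, Aldh1b1, a mitochondrial aldehyde dehydrogenase, and Sds, serine dehydratase, rose, and Sdsl and Hsd17b13 fell. Without LRH1+APAP liver 1, 2 or 3 or APAP liver 3 the rises numbered 0, without APAP liver 1 they numbered 7, and the falls were 0 to 4 over the same fits.

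**Figure D3:**
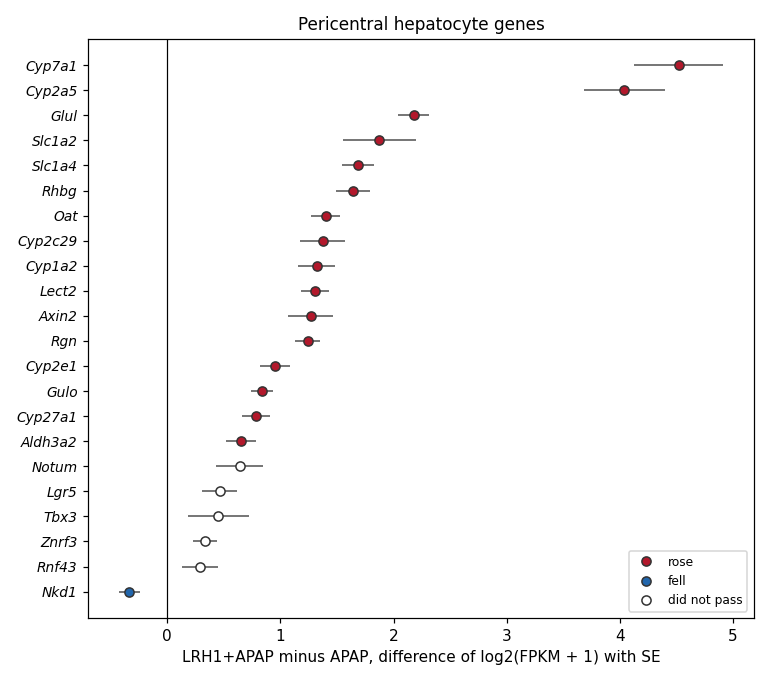
Log2 difference (LRH1+APAP minus APAP, log2 of FPKM plus 1) of the 22 pericentral hepatocyte genes, with bars for the SE. Red points rose (16 genes), the blue point fell (Nkd1) and white points did not pass.

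Genes of drug metabolism gave more rises than falls. Of 31 tested P450 genes and their reductase 18 rose (58.1%, against 7.13% of all tested genes) and 1 fell, with a median log2 difference of 0.54. Of these rises 4, those of Cyp2a5, Cyp2c29, Cyp1a2 and Cyp2e1, were also counted in the pericentral list. Cyp2c54 had 82.97, 79.9 and 94.5 FPKM in LRH1+APAP livers, against 28.1, 27.7 and 29.99 FPKM in APAP livers and 175, 166 and 149 FPKM in vehicle livers, and Cyp2c50 had 98.8, 93.9 and 114 FPKM in LRH1+APAP livers and 36.9, 32.9 and 33.6 FPKM in APAP livers. Their APAP livers were tightly grouped and well below both other groups (log2 1.55 ± 0.09 and 1.54 ± 0.10, adjusted p = 0.000248 and 0.000258). Cyp3a11, the main P450 of drug clearance, rose by log2 1.01 ± 0.19 and Cyp2b10, a target of the receptor CAR, by 1.42 ± 0.25. Por, the reductase that supplies P450 enzymes with electrons, rose by log2 0.39 ± 0.08. The call of Cyp3a11 was lost with 6 libraries in the fit, and without LRH1+APAP liver 2 or 3, or APAP liver 3. That of Cyp2b10 was lost with 6 libraries in the fit, with a weight for each group, and without LRH1+APAP liver 3. That of Por was lost with 6 libraries in the fit, with a weight for each group, and without LRH1+APAP liver 1 or 2, or APAP liver 3. Cyp2a12 fell, at 376, 362 and 361 FPKM in LRH1+APAP livers and 455, 503 and 471 FPKM in APAP livers (log2 -0.38 ± 0.08), a call lost with 6 libraries in the fit, with a weight for each group, and without LRH1+APAP liver 1, 2 or 3, or APAP liver 3. A total of 10 rises were called in every alternative; with 6 libraries in the fit 10 rose, and without LRH1+APAP liver 2, LRH1+APAP liver 3 or APAP liver 3 there were 11. Reads of the near-identical Cyp2c genes may be shared among them.

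Conjugating enzymes followed the same direction. Among 35 tested 17 rose (48.6%, against 7.13% of all tested genes) and 1 fell (2.86%, against 5.17%), with a median of 0.49. The glutathione transferases Gstm2 and Gstm1, which couple electrophiles to glutathione, had 91.8, 77.5 and 90.1 and 629, 723 and 854 FPKM in LRH1+APAP livers, against 37.5, 26.4 and 33.1 and 403, 289 and 326 FPKM in APAP livers (log2 1.40 ± 0.17 and 1.12 ± 0.17). Both were above every vehicle liver in LRH1+APAP livers (54.1, 34.5 and 42.8 and 494, 394 and 351 FPKM), and members of the Gstm cluster are close in sequence, so their split is uncertain. Sult1b1, a sulfotransferase of thyroid hormone, rose by log2 1.12 ± 0.16, and Ugt1a1, which glucuronidates bilirubin, by 0.75 ± 0.13. Gstp1, the pi-class transferase, fell, at 1318, 1362 and 1193 FPKM in LRH1+APAP livers and 1927, 1666 and 1623 FPKM in APAP livers (log2 -0.43 ± 0.10). The Gstp1 call was lost with no filter on low values, after upper-quartile scaling, after quantile normalization, with 6 libraries in the fit, with a weight for each group, and without LRH1+APAP liver 1, 2 or 3, APAP liver 3 or vehicle liver 3, and that of Ugt1a1 with 6 libraries in the fit, and without LRH1+APAP liver 3. In every alternative 5 genes rose (Gstm3, Gstm2, Gstm1, Gstm6 and Sult1b1). With 6 libraries in the fit 6 rose. Without LRH1+APAP liver 1, 2 or 3 the rises numbered 11, 6 and 5, and without APAP liver 3 they numbered 10.

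Amino acid catabolism rose in part. Of 30 tested genes 10 rose (33.3%, against 7.13% of all tested genes) and 1 fell (3.33%, against 5.17%), with a median of 0.30. Tat, tyrosine aminotransferase, a classic glucocorticoid-induced enzyme, had 638, 1043 and 829 FPKM in LRH1+APAP livers, against 284, 244 and 286 FPKM in APAP livers and 888, 981 and 1055 FPKM in vehicle livers. Its LRH1+APAP livers overlapped the vehicle livers and were more than 2 times as high as each APAP liver (log2 1.60 ± 0.17, adjusted p = 0.00285). Tat was called in every alternative. With 6 libraries in the fit 2 rose; without APAP liver 1 the count was 17, without LRH1+APAP liver 1, 2 or 3 it was 2 each, without APAP liver 2 or 3 it was 5 and 3, and without vehicle liver 1, 2 or 3 it was 3, 3 and 4. Cps1, the first enzyme of the urea cycle, stood at 591, 636 and 592 FPKM in LRH1+APAP livers and 548, 559 and 645 FPKM in APAP livers, with overlap (log2 0.06 ± 0.08, adjusted p = 0.648).

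Glucocorticoid targets gave 5 rises (23.8%, against 7.13% of all tested genes) and 0 falls among 21 tested, with a median of 0.21. Tsc22d3, the glucocorticoid-induced leucine zipper, had 39.8, 69.4 and 65.1 FPKM in LRH1+APAP livers, against 18.5, 14.2 and 18.7 FPKM in APAP livers and 89.96, 91.5 and 80.5 FPKM in vehicle livers (log2 1.68 ± 0.20, adjusted p = 0.00383). The APAP livers were the lowest of the 3 groups for this gene. Tat, Lpin1, Klf9, a transcription factor, and Arrdc2, an arrestin-domain protein, were the others. Klf9 and Arrdc2 rose by log2 1.04 ± 0.18 and 0.93 ± 0.22; the Klf9 call was lost without LRH1+APAP liver 2 or 3 and the Arrdc2 call with a weight for each group, and without LRH1+APAP liver 2 or 3, APAP liver 2 or 3, or vehicle liver 1. Serpina6, the corticosteroid-binding globulin of blood, had 44.6, 58.97 and 48.9 FPKM in LRH1+APAP livers, 21.3, 9.701 and 13.9 FPKM in APAP livers and 231, 184 and 131 FPKM in vehicle livers (log2 1.76 ± 0.28, called in every alternative). Serpina6 is counted among the secreted proteins below and not in this list. The count of 5 became 3 without LRH1+APAP liver 2 or 3.

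Transcription factors that define hepatocytes gave 1 call. Of 24 tested 0 rose and 1 fell by limma (4.17%, against 5.17% of all tested genes), while their median was 0.27. At an unadjusted limma p under 0.05 there were 5 higher and 2 lower, against 2055 and 1941 of all 12202 tested genes. The count of rises was 9 without APAP liver 1. Creb3l3, a membrane-bound factor of lipid and fasting metabolism, had 169, 149 and 149 FPKM in LRH1+APAP livers, against 219, 255 and 256 FPKM in APAP livers and 186, 201 and 191 FPKM in vehicle livers. Its LRH1+APAP livers were below all others (log2 -0.64 ± 0.09, adjusted p = 0.00611, called in every alternative). Hnf4a, the central hepatocyte factor, had 155, 148 and 142 FPKM in LRH1+APAP livers and 139, 128 and 136 FPKM in APAP livers, which did not overlap but did not pass (log2 0.14 ± 0.08, adjusted p = 0.277). Cebpa varied so widely within groups, with 135, 11.7 and 101 FPKM in LRH1+APAP livers and 124, 52.3 and 91.8 FPKM in APAP livers, that no difference was detectable (log2 -0.61 ± 0.97).

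Lipid genes moved in both directions. Among 20 tested genes of fatty acid and triglyceride synthesis 6 rose (30%) and 3 fell (15%), with a median of 0.36. Of all tested genes 7.13% rose and 5.17% fell. Dgat2, which makes triglyceride from diacylglycerol, had 338, 316 and 312 FPKM in LRH1+APAP livers, against 165, 171 and 200.3 FPKM in APAP livers (log2 0.85 ± 0.09, adjusted p = 0.00335). The falls were those of Fads2, Fads1 and Elovl5. Fads2, the delta-6 desaturase of polyunsaturated fatty acid synthesis, had 154, 136 and 134 FPKM in LRH1+APAP livers, 262, 208 and 272 FPKM in APAP livers and 295, 329 and 295 FPKM in vehicle livers (log2 -0.80 ± 0.11, adjusted p = 0.00673). Its neighbour Fads1, the delta-5 desaturase, had 76.4, 68.2 and 68.2 FPKM in LRH1+APAP livers, 108, 100.1 and 116 FPKM in APAP livers and 136, 148 and 132 FPKM in vehicle livers (log2 -0.60 ± 0.08, adjusted p = 0.00626). For both desaturases the LRH1+APAP livers were below every APAP and every vehicle liver, and both calls held in every alternative, as did those of Dgat2 and Lpin1. Elovl5, an elongase of the same pathway, fell by 0.66 on the log2 scale, a call lost with 6 libraries in the fit, with a weight for each group, and without LRH1+APAP liver 1, 2 or 3, or APAP liver 3. With 6 libraries in the fit 2 rose; rises numbered 3, 2 and 3 without LRH1+APAP liver 1, 2 or 3, and 10 and 2 without APAP liver 1 or 3.

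Secreted proteins and apolipoproteins of hepatocytes gave 3 rises (10%) and 8 falls (26.7%) among 30 tested, with a median of -0.09. Of all tested genes 7.13% rose and 5.17% fell. Apoa4, an apolipoprotein induced by lipid load (chromosome 9, 46240845 to 46243458), had 786, 465 and 661 FPKM in LRH1+APAP livers, against 1891, 4537 and 3473 FPKM in APAP livers and 287, 386 and 438 FPKM in vehicle livers (log2 -2.31 ± 0.32, adjusted p = 0.00651). LRH1+APAP livers lay between the other groups. Apoc2, the activator of lipoprotein lipase, had 304, 308 and 289 FPKM in LRH1+APAP livers, 549.6, 992 and 826 FPKM in APAP livers and 377, 368 and 356 FPKM in vehicle livers, and here LRH1+APAP livers were below both other groups (log2 -1.35 ± 0.18, adjusted p = 0.00548). Apoa4 and Apoc2 fell in every alternative. The rises were Serpina6, given above, Ces1c and Gc. Ces1c had 931, 842 and 909 FPKM in LRH1+APAP livers and 634, 581 and 558 FPKM in APAP livers (log2 0.60 ± 0.08, adjusted p = 0.00451). Serpina6 and Ces1c rose in every alternative. The other falls were Apoc3, Apoa1, Ahsg and the Serpina1 paralogs Serpina1a, Serpina1b and Serpina1d, whose reads may be shared. The count of falls was 4, 5 and 2 without LRH1+APAP liver 1, 2 or 3, 4 without APAP liver 3, 2 with 6 libraries in the fit and 5 after quantile normalization, which put the median at 0.01; without APAP liver 1 there were 7 rises. Complement and coagulation genes gave 7 rises (21.2%) and 1 fall (3.03%) among 33 tested (median 0.17), 15 rises without APAP liver 1 and 0 with 6 libraries in the fit. Complement and coagulation rises numbered 1, 0 and 0 without LRH1+APAP liver 1, 2 or 3, 1 without APAP liver 3 and 3, 3 and 4 without vehicle liver 1, 2 or 3.

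Methionine cycle and transsulfuration genes, which feed glutathione synthesis, gave 3 rises (18.8%, against 7.13% of all tested genes) and 0 falls among 16 tested (median 0.41). Cth, cystathionine gamma-lyase, which frees cysteine, had 149, 187 and 155 FPKM in LRH1+APAP livers and 129, 80.9 and 79.5 FPKM in APAP livers (log2 0.79 ± 0.18, adjusted p = 0.028). Those rises numbered 11 without APAP liver 1, 0 without any 1 of the LRH1+APAP livers or APAP liver 2 or 3, and 1 without vehicle liver 2. Glucose metabolism gave 3 rises (12.5%) and 2 falls (8.33%, against 5.17% of all tested genes) among 24 (median 0.13). Among the rises was Slc2a2, the glucose transporter of hepatocytes, at 62.3, 58.1 and 59.6 FPKM in LRH1+APAP livers, 39.7, 10.8 and 20.3 FPKM in APAP livers and 83.4, 74.2 and 66.2 FPKM in vehicle livers (log2 1.49 ± 0.36). Ldha, lactate dehydrogenase A, had 497, 457 and 449 FPKM in LRH1+APAP livers and 733, 630.2 and 781 FPKM in APAP livers (log2 -0.61 ± 0.11). Glucose gene rises numbered 9 and falls 5 without APAP liver 1, and 1 rose without any 1 of the LRH1+APAP livers, with 0 or 1 falls there.

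Fatty acid oxidation and ketogenesis gave 1 rise and 2 falls among 25 (median -0.12); the rise was Ppargc1a, a coactivator of mitochondrial genes, at 2.57, 3.18 and 3.52 FPKM in LRH1+APAP livers and 1.52, 0.958 and 1.19 FPKM in APAP livers (log2 0.88 ± 0.12, called in every alternative). Its rises were 3 without APAP liver 1, and its falls 0 to 4 when 1 liver was left out, the most without APAP liver 2. Cholesterol synthesis and uptake gave 2 rises and 0 falls among 24 (median 0.12), and 4 of each without APAP liver 1; 0 rose without LRH1+APAP liver 2 or 3 and 1 without LRH1+APAP liver 1. The growth hormone and STAT5 axis gave 0 rises and 1 fall among 17 (median -0.21). The fall was Mup3, a major urinary protein with close paralogs, at 5664, 5548 and 5179 FPKM in LRH1+APAP livers and 8913, 8289 and 7236 FPKM in APAP livers (log2 -0.57 ± 0.10). Without APAP liver 1 that list gave 5 rises and 4 falls, and without LRH1+APAP liver 2 or 3 it gave 0 falls. Respiratory chain genes gave 0 rises and 1 fall (3.33%), Cox7a2, among 30. Their median, -0.02, was 0.05 with the same summed FPKM, 6 rose without APAP liver 1, and 0 fell without any 1 liver other than APAP liver 1 or 2. Rises and falls were 4% and 8% for fatty acid oxidation, 8.33% and 0% for cholesterol and 0% and 5.88% for growth hormone. Of all tested genes 7.13% rose and 5.17% fell.

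Part of the oxidative stress genes rose further above vehicle levels. Of 23 tested targets of NRF2 and genes of glutathione supply 10 rose and 0 fell, with a median of 0.47. The share that rose was 43.5%, against 7.13% of all tested genes. Hmox1, the inducible heme oxygenase (chromosome 8, 75093619 to 75100593), had 541, 409 and 562 FPKM in LRH1+APAP livers, against 193, 293 and 213 FPKM in APAP livers and 10.1, 9.36 and 12.5 FPKM in vehicle livers. Every LRH1+APAP liver was above every APAP liver (log2 1.12 ± 0.18, adjusted p = 0.0115), a call lost without LRH1+APAP liver 3 (adjusted p = 0.056, in a range of 0.0056 to 0.056 over its alternatives). Gclc and Gclm, the subunits of the enzyme that starts glutathione synthesis, had 503, 554 and 680.5 and 138, 147 and 148 FPKM in LRH1+APAP livers, against 283, 391 and 349.9 and 107, 69.7 and 77.1 FPKM in APAP livers (log2 0.76 ± 0.16 and 0.79 ± 0.14). The Gclm call was lost with 6 libraries in the fit, and without LRH1+APAP liver 2 or 3, or APAP liver 3, and that of Gclc in the same fits and with a weight for each group. Prdx1, a peroxiredoxin that removes peroxide, had 1130.4, 1181 and 1234 FPKM in LRH1+APAP livers and 848, 862 and 851 FPKM in APAP livers, and was the member called in every alternative (log2 0.47 ± 0.07, adjusted p = 0.00743). The count of 10 became 4 with 6 libraries in the fit, 2 without LRH1+APAP liver 2, 1 without LRH1+APAP liver 3 and 3 without APAP liver 3.

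Heat shock and other stress genes split. Of 19 tested chaperones 5 rose (26.3%, against 7.13% of all tested genes) and 0 fell, with a median of 0.28. Hspb1, a small heat shock protein, had 409, 400.0 and 485 FPKM in LRH1+APAP livers, against 232, 162 and 192 FPKM in APAP livers and 19.1, 12.97 and 16.4 FPKM in vehicle livers (log2 1.15 ± 0.16, adjusted p = 0.00712). Dnaja1 and Hspa4l, co-chaperones of the HSP70 system, rose by log2 0.65 ± 0.10 and 0.58 ± 0.09, and these 3 were called in every alternative. With 6 libraries, without any 1 of the LRH1+APAP livers, without APAP liver 3 or without vehicle liver 2 the count was 3. Hspa1a, the inducible HSP70 with a nearly identical neighbour, had 1477, 878 and 734 FPKM in LRH1+APAP livers and 1623, 882 and 1242 FPKM in APAP livers, with overlap (log2 -0.30 ± 0.40, adjusted p = 0.628).

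The integrated stress and unfolded protein responses gave 5 rises (17.9%) and 3 falls (10.7%) among 28 tested, with a median of -0.05. Of all tested genes 7.13% rose and 5.17% fell. Ddit3, the death-associated factor CHOP, had 544, 436 and 527 FPKM in LRH1+APAP livers, against 158, 209 and 283 FPKM in APAP livers and 4.48, 8.66 and 9.41 FPKM in vehicle livers (log2 1.24 ± 0.27, adjusted p = 0.0256). Xbp1, the factor of the IRE1 branch, went the other way, with 67.4, 62.4 and 56.3 FPKM in LRH1+APAP livers, 89.8, 142 and 149 FPKM in APAP livers and 55.6, 59.1 and 67.4 FPKM in vehicle livers (log2 -0.99 ± 0.18, adjusted p = 0.0156). LRH1+APAP livers overlapped the vehicle livers for Xbp1. Fgf21, a stress-induced hormone of liver, had 19.8, 10.3 and 12.1 FPKM in LRH1+APAP livers and 64.03, 27.2 and 44.4 FPKM in APAP livers (log2 -1.59 ± 0.38, adjusted p = 0.0331), and Asns, asparagine synthetase, fell by 0.87 on the log2 scale. The Ddit3 call was lost with a weight for each group, and without LRH1+APAP liver 1, 2 or 3, or APAP liver 2. For Xbp1 it was lost with 6 libraries in the fit, and without LRH1+APAP liver 2 or 3, or APAP liver 3. For Fgf21 it was lost with no filter on low values, with 6 libraries in the fit, with a weight for each group, and without LRH1+APAP liver 2 or 3, APAP liver 3 or vehicle liver 2. For Asns it was lost with a pseudocount of 0.1, with 6 libraries in the fit, with a weight for each group, and without LRH1+APAP liver 2 or 3, or APAP liver 2. With 6 libraries in the fit 3 genes of this list rose and 0 fell. Without LRH1+APAP liver 1, 2 or 3 there were 1, 2 and 1 rises and 3, 0 and 0 falls, without APAP liver 1, 2 or 3 there were 6, 3 and 2 rises and 5, 3 and 1 falls, and without vehicle liver 1 there were 3 rises. The median turned to 0.02 with the same summed FPKM.

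Immediate early genes gave 1 rise and 1 fall among 27 tested, with a median of -0.40. Each was 3.7%, against 7.13% and 5.17% of all tested genes. Atf3, a stress-induced factor, had 939, 723 and 829 FPKM in LRH1+APAP livers, against 312, 462 and 474 FPKM in APAP livers and 0.545, 0.382 and 0.458 FPKM in vehicle livers (log2 1.01 ± 0.16, adjusted p = 0.0109, call lost with 6 libraries in the fit, and without LRH1+APAP liver 3). Egr1, a factor induced by growth signals, had 539, 345 and 359 FPKM in LRH1+APAP livers and 603, 642 and 600.0 FPKM in APAP livers (log2 -0.60 ± 0.15, adjusted p = 0.0402). Its call held in 7 of 21 alternatives. Jun, a subunit of AP-1, had 792, 476 and 449 FPKM in LRH1+APAP livers and 993, 836 and 902 FPKM in APAP livers, which did not overlap, but it did not pass (log2 -0.71 ± 0.23, adjusted p = 0.0704). Without APAP liver 1, 9 immediate early genes fell and 2 rose; without APAP liver 2, 4 rose and 0 fell; and without LRH1+APAP liver 1, 2 fell. Without LRH1+APAP liver 3, 0 rose, and falls numbered 0 without LRH1+APAP liver 2 or 3, APAP liver 3 or any 1 of the vehicle livers.

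Repair, clock and acute phase genes also split. Among 18 tested p53 targets 3 rose and 1 fell (median 0.01), and Trp53inp1, a stress protein of that pathway, had 79.1, 72.8 and 95.4 FPKM in LRH1+APAP livers, against 36.2, 47.6 and 45.2 FPKM in APAP livers and 18.1, 18.3 and 15.7 FPKM in vehicle livers (log2 0.92 ± 0.13, called in every alternative). Their rises numbered 1 without LRH1+APAP liver 2 or 3 and 6 without APAP liver 1, where 4 fell; without any 1 of the LRH1+APAP livers or APAP liver 3, 0 fell. The rises and falls of p53 targets were 16.7% and 5.56% of those tested, against 7.13% and 5.17% of all tested genes. Among 23 cell cycle genes 2 rose (8.7%) and 4 fell (17.4%), with a median of 0.05. Ccnd1, cyclin D1, had 22.1, 32.00 and 22.5 FPKM in LRH1+APAP livers and 10.4, 6.48 and 16.6 FPKM in APAP livers (log2 1.19 ± 0.28), while Ccnd2, cyclin D2, had 1.45, 0.646 and 1.21 FPKM in LRH1+APAP livers and 2.41, 5.32 and 3.48 FPKM in APAP livers (log2 -1.15 ± 0.22). Cell cycle rises numbered 0 without any 1 of the LRH1+APAP or vehicle livers and 1 without APAP liver 2 or 3, and falls 1, 0 and 0 without LRH1+APAP liver 1, 2 or 3, 1 and 0 without APAP liver 2 or 3 and 1 and 2 without vehicle liver 1 or 2. Aminoacyl-tRNA synthetases gave 2 rises (10%) and 4 falls (20%) among 20 (median -0.11), 0 of both without any 1 of the LRH1+APAP livers and 9 falls without APAP liver 1. Without APAP liver 2 or 3 they had 1 rise each and 1 and 0 falls, and without vehicle liver 1, 2 or 3 they had 1 rise each and 2, 3 and 3 falls.

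Of 27 acute phase genes 3 rose (11.1%) and 2 fell (7.41%), with a median of -0.21. Of all tested genes 7.13% rose and 5.17% fell. Il6ra, a subunit of the interleukin 6 receptor, had 34.98, 39.6 and 34.8 FPKM in LRH1+APAP livers, 16.1, 12.3 and 12.7 FPKM in APAP livers and 25.7, 20.7 and 29.8 FPKM in vehicle livers, and its LRH1+APAP livers were above all others (log2 1.36 ± 0.14, called in every alternative). Fgb, the fibrinogen beta chain, had 2271, 2234 and 1921 FPKM in LRH1+APAP livers and 2538, 3873 and 3420.1 FPKM in APAP livers (log2 -0.60 ± 0.16). Acute phase falls numbered 9 without APAP liver 1 and 0 without any 1 other liver, and rises 1 without LRH1+APAP liver 2 or APAP liver 3 and 5 without APAP liver 1. Circadian clock genes gave 3 rises and 0 falls among 18 (median 0.35), with Hlf, a clock output factor, at 10.99, 14.4 and 11.98 FPKM in LRH1+APAP livers and 6.65, 1.67 and 2.93 FPKM in APAP livers (log2 1.63 ± 0.31); 7 rose without APAP liver 1, 0 without LRH1+APAP liver 3 or APAP liver 3 and 1 without any 1 other liver except vehicle liver 3. The rises of clock genes were 16.7% of those tested. Interferon response genes gave 1 rise (3.7%), Irf7, and 0 falls among 27 (median 0.01), and 3 rises and 2 falls without APAP liver 1. Without any 1 other liver 0 rose.

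The 12 largest falls were chosen like the rises, among genes with no overlap between the groups. They included genes of neutrophils, of the actin programme and of lipid storage, and in 10 of the 12 APAP liver 1 was the lowest of its group. S100a8 and S100a9, the calprotectin subunits carried by neutrophils (chromosome 3, 90669072 to 90670034 and 90692631 to 90695721), had 1.34, 0.932 and 1.14 and 1.74, 2.64 and 3.21 FPKM in LRH1+APAP livers, against 10.4, 156 and 15.2 and 15.9, 232 and 22.9 FPKM in APAP livers. APAP liver 2 was far above the other APAP livers, and all LRH1+APAP livers were below all APAP livers, as the choice required (log2 -3.85 ± 0.82 and -3.71 ± 0.82, adjusted p = 0.0236 and 0.0268). Both calls were lost with 6 libraries in the fit, and without LRH1+APAP liver 1, 2 or 3. Tagln, transgelin, an actin-binding protein of contractile cells, had 7.59, 9.69 and 6.11 FPKM in LRH1+APAP livers, 34.3, 107 and 83.7 FPKM in APAP livers and 3.89, 2.76 and 2.34 FPKM in vehicle livers (log2 -2.98 ± 0.37, adjusted p = 0.00424). Obp2a, an odorant-binding protein, had 1.13, 2.08 and 1.63 FPKM in LRH1+APAP livers and 15.1, 15.8 and 6.47 FPKM in APAP livers (log2 -2.29 ± 0.32, adjusted p = 0.00651). Of the 12, Tagln, Obp2a and Apoa4 were called in every alternative.

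The calls of the other 9 depended on the livers in the fit. Hilpda, which inhibits lipolysis at lipid droplets under hypoxia, had 6.83, 4.65 and 5.34 FPKM in LRH1+APAP livers and 16.3, 105 and 48.1 FPKM in APAP livers (log2 -2.78 ± 0.53, call lost with 6 libraries in the fit, and without LRH1+APAP liver 2 or 3, or APAP liver 3). Slc25a30 had 13.2, 8.29 and 7.81 FPKM in LRH1+APAP livers and 17.8, 191 and 89.5 FPKM in APAP livers, a pattern in which APAP liver 1 was close to LRH1+APAP liver 1 (log2 -2.71 ± 0.69, call lost with no filter on low values, with 6 libraries in the fit, and without LRH1+APAP liver 1, 2 or 3, APAP liver 2 or 3, or vehicle liver 1, 2 or 3). Ankrd1, a YAP target, and Thbs1, thrombospondin 1, fell by 2.93 and 2.74 on the log2 scale. Their levels in APAP livers 1 to 3 were 1.66, 20.5 and 14.5 FPKM and 2.45, 26.6 and 14.6 FPKM. Those in LRH1+APAP livers were 0.192, 0.365 and 0.220 FPKM and 0.531, 1.02 and 0.611 FPKM. Both calls were lost with 6 libraries in the fit, and without LRH1+APAP liver 1, 2 or 3, or APAP liver 3, and that of Thbs1 also without vehicle liver 2. Nes, the filament protein nestin, fell by 2.34 (lost with 6 libraries in the fit, and without LRH1+APAP liver 2 or 3), and the neutrophil-attracting chemokine Cxcl2 by 2.29 (lost with no filter on low values, with 6 libraries in the fit, and without LRH1+APAP liver 1, 2 or 3, APAP liver 3 or vehicle liver 1, 2 or 3). Rmrp, the RNA of the MRP ribonuclease, had 7.68, 2.32 and 1.72 FPKM in LRH1+APAP livers and 57.1, 13.3 and 22.9 FPKM in APAP livers (log2 -2.66 ± 0.60, call lost with 6 libraries in the fit, with a weight for each group, and without LRH1+APAP liver 2 or 3, or APAP liver 3). Rmrp is a short RNA (chromosome 4, 43492786 to 43493059), and how well messenger RNA libraries measure it was not tested. For Rmrp and Obp2a, APAP liver 1 was not the lowest of its group. Cxcl2 had 0.714, 0.415 and 0.733 FPKM in LRH1+APAP livers and 2.21, 21.3 and 5.84 FPKM in APAP livers. Ankrd1, Thbs1 and Cxcl2 passed the filter on low values only through the APAP livers, where they were high, which favours falls.

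**Figure D4:**
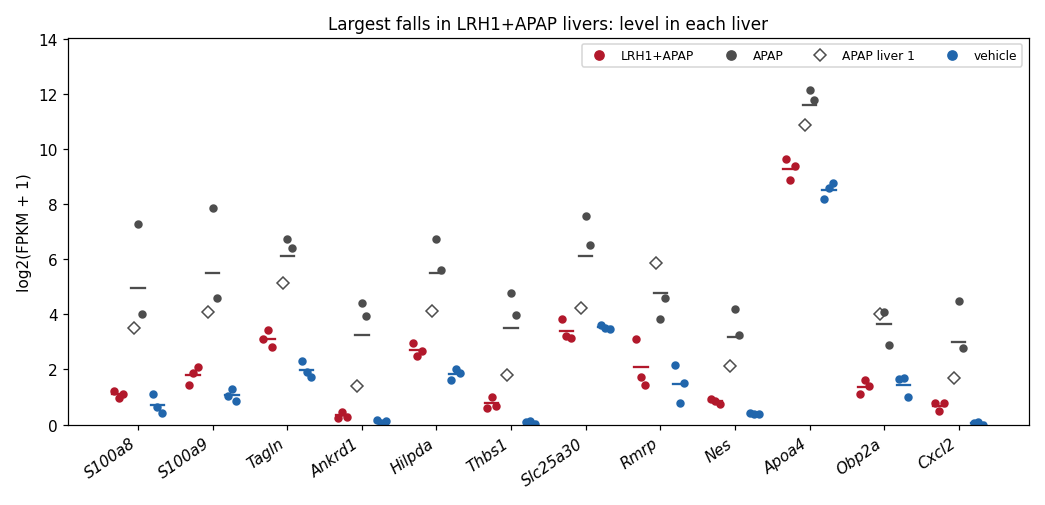
Level in each liver, as log2 of FPKM plus 1, of the 12 largest falls, with LRH1+APAP livers left, APAP livers in the middle and vehicle livers right for each gene. Open diamonds are APAP liver 1, which is the lowest APAP liver for 10 of the 12. Genes were chosen so that no LRH1+APAP liver reaches an APAP liver. Ankrd1, Thbs1 and Cxcl2 passed the filter on low values only through the APAP livers, where they were high.

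Of 15 neutrophil markers listed, 8 were tested, and 3 of them fell. Part of the 8 (Cxcr2, Mmp8 and Mmp9) passed the filter on low values only through the APAP livers, where they were high, so no share of the tested members is set against that of all genes. The summed level of the listed markers was 10.3 to 10.9 FPKM in LRH1+APAP livers, 38.2, 503 and 56.8 FPKM in APAP livers 1 to 3 and 4.03 to 5.29 FPKM in vehicle livers. The third gene that fell was Hdc, histidine decarboxylase, by 0.91 on the log2 scale (adjusted p = 0.0451), a call lost with no filter on low values, with the same summed FPKM, with 6 libraries in the fit, with a weight for each group, and without LRH1+APAP liver 1, 2 or 3, APAP liver 3 or vehicle liver 1, 2 or 3. The other 7 markers averaged too little to test. Of these Mpo, Ltf, Camp and Ngp were at 0 in each LRH1+APAP liver, but in APAP livers they also lay at 0 or under 1 FPKM. Elane, neutrophil elastase, had 0.116, 0.0888 and 0.125 FPKM in LRH1+APAP livers and 0.132, 0.141 and 0.120 FPKM in APAP livers, which overlapped. Ly6g also overlapped between the groups, while Trem1 was lower in every LRH1+APAP liver than in every APAP liver. The falls numbered 0 with 6 libraries and 0 without any 1 of the LRH1+APAP livers, 7 without APAP liver 1, 4 without APAP liver 2 and 2 without APAP liver 3.

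Inflammatory mediators gave falls and no rises. Of 21 tested cytokines and chemokines 4 fell and 0 rose, with a median of -0.33. Part of the 21, with Ccl4 and Cxcl2 among them, passed the filter on low values only through the APAP livers, where they were high, so this count is a description. Ccl2, which attracts monocytes, had 1.298, 2.298 and 1.95 FPKM in LRH1+APAP livers, against 8.26, 9.53 and 4.45 FPKM in APAP livers (log2 -1.52 ± 0.24, adjusted p = 0.0101). Ccl4, another monocyte and lymphocyte attractant, had 0.696, 0.856 and 0.817 FPKM in LRH1+APAP livers and 2.403, 3.57 and 2.28 FPKM in APAP livers (log2 -1.05 ± 0.13, adjusted p = 0.00451). Vehicle livers had 0, 0 and 0.210 FPKM of Ccl2 and 0, 0 and 0.165 FPKM of Ccl4, and both genes fell in every alternative in which they were tested. Il1b, a cytokine of activated macrophages, fell by 2.02 on the log2 scale, with APAP liver 2 at 18.7 FPKM and the other APAP livers under 5 FPKM, a call lost with 6 libraries in the fit, and without LRH1+APAP liver 1, 2 or 3, APAP liver 3 or vehicle liver 1, 2 or 3. Falls numbered 2 without any 1 of the LRH1+APAP livers, APAP liver 3 or any 1 of the vehicle livers, 2 with 6 libraries, and 12 without APAP liver 1; with a mean of at least 5 FPKM required, 0 fell and the median was 0.26.

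Of 21 tested monocyte and macrophage markers 3 fell (14.3%, against 5.17% of all tested genes) and 0 rose (median -0.12). At an unadjusted limma p under 0.05 there were 8 higher and 6 lower, against 2055 and 1941 of all 12202 tested genes. Summed levels were 337 to 511 FPKM in LRH1+APAP livers and 230.0 to 433 FPKM in APAP livers, which overlapped. Msr1, a scavenger receptor, had 6.91, 6.27 and 7.12 FPKM in LRH1+APAP livers and 13.4, 20.7 and 16.3 FPKM in APAP livers, and fell in every alternative (log2 -1.18 ± 0.15, adjusted p = 0.00424). Of 13 Kupffer cell markers 2 fell (15.4%) and 1 rose (7.69%, against 7.13% of all tested genes), with a median of -0.28. Slc40a1, the iron exporter ferroportin, had 83.6, 88.3 and 96.1 FPKM in LRH1+APAP livers and 63.02, 40.2 and 45.2 FPKM in APAP livers (log2 0.86 ± 0.16), while the resident macrophage lectin Clec4f had 47.2, 48.5 and 50.4 FPKM in LRH1+APAP livers and 58.3, 63.6 and 67.5 FPKM in APAP livers (log2 -0.37 ± 0.09). The Slc40a1 call was lost with 6 libraries in the fit, and without LRH1+APAP liver 2 or 3, or APAP liver 3. The Clec4f call was lost with the same summed FPKM, with 6 libraries in the fit, with a weight for each group, and without LRH1+APAP liver 1, 2 or 3, APAP liver 2 or 3, or vehicle liver 2. Monocyte and macrophage falls numbered 1 with 6 libraries and 1 without any 1 liver other than APAP liver 1, without which they numbered 5, and without APAP liver 3 there were 3 rises. Kupffer cell falls numbered 7 without APAP liver 1, 0 without any 1 of the LRH1+APAP livers and 1 without APAP liver 2 or 3 or vehicle liver 2.

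Of 20 endothelial markers 7 fell (35%, against 5.17% of all tested genes) and 0 rose (median -0.33). Their summed level was 277 to 288 FPKM in LRH1+APAP livers, 320.4 to 415 FPKM in APAP livers and 227 to 251 FPKM in vehicle livers. Lyve1, a hyaluronan receptor of sinusoidal endothelium, had 9.97, 8.73 and 10.7 FPKM in LRH1+APAP livers, 18.04, 42.8 and 30.7 FPKM in APAP livers and 3.99, 9.83 and 4.86 FPKM in vehicle livers (log2 -1.47 ± 0.34). Flt4, a receptor of lymphatic and sinusoidal endothelium, had 5.22, 4.91 and 5.33 FPKM in LRH1+APAP livers and 7.14, 7.62 and 8.02 FPKM in APAP livers (log2 -0.48 ± 0.08, call lost without LRH1+APAP liver 2). The Lyve1 call was lost with 6 libraries in the fit, with a weight for each group, and without LRH1+APAP liver 1, 2 or 3, or APAP liver 2 or 3. Endothelial falls numbered 1 with 6 libraries, 1, 0 and 1 without LRH1+APAP liver 1, 2 or 3, 1 without APAP liver 3, and 3, 3 and 4 without vehicle liver 1, 2 or 3. Of 20 stellate cell and fibroblast markers 4 fell (20%) and 0 rose (median -0.25), with summed levels of 362 to 391 FPKM in LRH1+APAP livers and 371 to 611 FPKM in APAP livers. Besides Tagln the genes that fell were Des, the filament protein desmin, Ecm1, a matrix protein, and Timp1, a protease inhibitor. The count of falls was 8 without APAP liver 1, 1 without LRH1+APAP liver 1 or 3, 2 without APAP liver 3, with 4 rises there, and 1 with 6 libraries. With a mean of at least 5 FPKM required, their median was 0.03.

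Markers of other cells gave 0 or few calls. By limma, 0 of 6 tested cholangiocyte markers and 0 of 3 markers of T, B and NK cells passed. Nor did any of 8 erythroid markers or the 1 pancreatic acinar marker tested. At an unadjusted limma p under 0.05, 1 cholangiocyte marker was higher and 1 of T, B and NK cells lower. Of the 8 erythroid markers 5 were lower and 0 higher, with a median of -0.98. Of all 12202 tested genes 2055 were higher and 1941 lower. The pancreatic marker was neither. Without APAP liver 1, the falls were 1, 1, 2 and 0 in the order given. Erythroid markers summed to 925 to 2469 FPKM in LRH1+APAP livers, 2293 to 7548 FPKM in APAP livers and 619 to 955 FPKM in vehicle livers, with overlap between the APAP and LRH1+APAP livers. Of 3 tested adipocyte markers, Pparg, a nuclear receptor of fat storage, rose (log2 1.15 ± 0.20) and Fabp4, a fatty acid carrier, fell (log2 -1.46 ± 0.31). The Pparg call was lost with a weight for each group, and without LRH1+APAP liver 2 or 3, and the Fabp4 call with 6 libraries in the fit, and without LRH1+APAP liver 1, 2 or 3, or APAP liver 3.

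Targets of SRF and YAP, which couple actin tension to gene expression, gave 7 falls and 0 rises among 29 tested, with a median of -0.86. Ankrd1 and Thbs1 passed the filter on low values only through the APAP livers, where they were high. In 13 of the 29 all LRH1+APAP livers were below all APAP livers, against 15.7% of all tested genes. The filter favours falls in this list. The summed level was 1158 to 1427 FPKM in LRH1+APAP livers, against 1031, 6173 and 2637 FPKM in APAP livers 1 to 3, so APAP liver 1 was below the LRH1+APAP livers. Cnn2, a calponin, had 3.41, 4.29 and 3.47 FPKM in LRH1+APAP livers and 6.67, 23.5 and 18.4 FPKM in APAP livers, and Flna, filamin A, had 4.89, 6.35 and 4.64 FPKM in LRH1+APAP livers and 8.896, 28.9 and 18.3 FPKM in APAP livers (log2 -1.71 ± 0.36 and -1.52 ± 0.33). Both calls were lost with 6 libraries in the fit, and without LRH1+APAP liver 1, 2 or 3, or APAP liver 3. Falls numbered 23 without APAP liver 1, 1, 2 and 1 without LRH1+APAP liver 1, 2 or 3, 1 without APAP liver 3, 4 without vehicle liver 2 and 1 with 6 libraries. Neutrophil, stellate and endothelial marker sums, given above, were also lower in LRH1+APAP livers than in APAP livers 2 and 3, and their part in this list's falls and in the pericentral rises was not tested.

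Ribosomal protein genes were slightly lower across the list. Of 30 tested cytosolic ribosomal protein genes 6 fell (20%, against 5.17% of all tested genes) and 0 rose, with a median of -0.20. In 26 of the 30 every LRH1+APAP liver was below every APAP liver, against 15.7% of all tested genes. Rps14 had 217, 213 and 198 FPKM in LRH1+APAP livers, against 272, 264 and 268 FPKM in APAP livers and 175, 176 and 172 FPKM in vehicle livers (log2 -0.36 ± 0.06, adjusted p = 0.0128). LRH1+APAP livers lay between the APAP and the vehicle livers. The Rps14 call was lost with 6 libraries in the fit, and without LRH1+APAP liver 2 or 3. The median kept its sign under each scaling, at -0.12 with the same summed FPKM, -0.20 after upper-quartile scaling and -0.18 after quantile normalization, with 3, 4 and 7 falls. Falls numbered 22 without APAP liver 1, 3, 0 and 0 without LRH1+APAP liver 1, 2 or 3, 1 without APAP liver 3 and 0 with 6 libraries. Ribosome biogenesis genes gave 2 falls (7.69%) and 0 rises among 26 tested (median -0.28), with 19 falls without APAP liver 1, 0 without any 1 of the LRH1+APAP livers or APAP liver 3 and 1 without APAP liver 2 or vehicle liver 2. Proteasome subunits gave 0 calls among 27 by limma and 2 lower at an unadjusted p under 0.05, with a median of 0.01 that turned to -0.02 after quantile normalization; 1 fell without APAP liver 1.

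**Figure D5:**
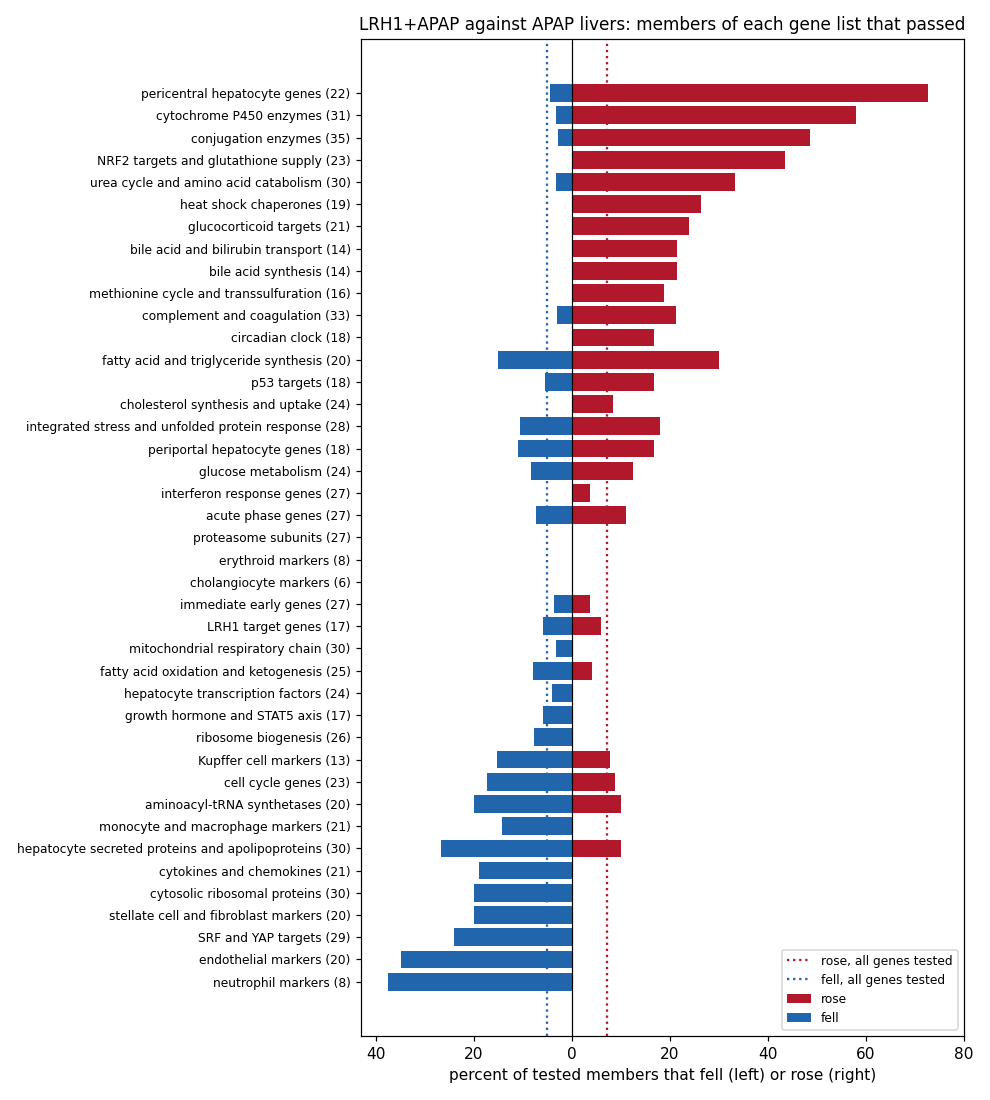
Percent of tested members that fell (blue, left) and rose (red, right) in LRH1+APAP against APAP livers for each gene list with at least 5 tested members, with the number tested in brackets. Dotted lines mark the share over all 12202 tested genes, 7.13% that rose and 5.17% that fell; pericentral genes (16 of 22) and P450 enzymes (18 of 31), which share 4 of their rises, have the highest shares of rises. Part of the neutrophil markers, cytokines and SRF and YAP targets passed the filter on low values only through the APAP livers, where they were high, which favours falls in those lists. Some genes are in several lists, with Cyp7a1 and Cyp27a1 in those of bile acid synthesis and pericentral genes. All lists were chosen with earlier results of these data known.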

How the data were processed

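The authors' deposited table gave FPKM per transcript model for 9 mouse livers, 3 per group. Per the labels' protocols, RNA was extracted with Trizol and 1 µg total RNA went into TruSeq mRNA libraries. Per the submitters' processing notes, FastQC 0.10.0, Bowtie2 2.2.6, StringTie 1.3.3b and the build mm10 were used. Counts were not among the values, so depth is unknown and no counting intervals are given. All 36779 models were summed by symbol to 24541 genes. Genes averaging 0.5 FPKM or more were tested on log2(FPKM + 1) with limma 3.58.1 (R 4.3.3, data.table version 1.17.8), with an intensity trend, all 3 groups in the fit, 6 residual degrees of freedom and Benjamini-Hochberg adjustment. The scripts were tested on simulated data, and figures used Python 3.11.15 and matplotlib 3.10.9. Fold changes on this scale understate those of low genes.

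Genes named were Nr5a2, the 12 largest rises, the 12 largest falls and a fixed panel. The 3 smallest p-values were also named in each list with at least 5 tested members of which at least 25% passed. Other list members that passed were named too. The largest rises and falls had no overlap and a mean of 5 FPKM or more in whichever group was higher. Predicted symbols and part of the small RNA symbols were passed over, but Rmrp, a small RNA, was kept. The members and the 44 lists were chosen with earlier results of these data known. There were 21 alternatives. One named gene is not reported here. Coordinates are those the deposited values came with.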

Additional observations from a re-analysis of the deposited data

How the results depend on the processing

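Of the values for single named genes over the 21 alternatives, 1691 kept their direction and their side of the threshold, 214 no longer passed, 6 newly passed and 9 turned direction. Rises and falls numbered 1312 and 404 with the same summed FPKM, 194 and 57 with 6 libraries in the fit, and 431 and 296 with a weight for each group; the cause was not tested. Leaving out 1 liver gave 157 to 2038 rises and 53 to 2604 falls, in both cases with the fewest without LRH1+APAP liver 3 and the most without APAP liver 1. The replicate numbers did not pair livers, since correlations of deviations between same-numbered LRH1+APAP and APAP livers were 0.068, -0.129 and -0.024, and the replicate block gave 508 rises and 299 falls. Calls lost with the block, those of Gclc, Slc25a30 and Cxcl2 among them, are not listed beside single genes. No gene that turned direction had passed. When 1 liver was left out, the log2 difference ranged from -0.088 (without LRH1+APAP liver 1) to 0.78 for Cxcl1, from -0.31 to 0.029 (without LRH1+APAP liver 1) for Cd68, which was also 0.02 without APAP liver 2, from -1.245 to 0.46 (without LRH1+APAP liver 2) for Cebpa, and from -0.51 to 0.09 (0.095 without APAP liver 3) for Onecut1. It ranged from -0.11 to 0.71 for Nr1h4, from -0.16 to 0.42 for Pck1 and from -0.61 to 0.00074 for Cdkn1a, which turned without APAP liver 2; the cause was not tested. Depth is unknown, so what it limits could not be measured.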
